A study of Sus scrofa with 80 samples.

Results

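The transcripts of 8 genes, NAP1L1, TBC1D7, TTC38, PTGES3, HNRNPH2, LOC100738720, ANXA2 and ABLIM1, were followed in pigs of the Youli line and of 3 other breeds. They were selected on measured values, because Youli stood apart from the other breeds for them in these same arrays, so that the Youli differences below are a description and carry no test. The annotation of the array gives 1 of these symbols to 18 probesets of the 23999 that are not controls, with 4 probesets for NAP1L1, 4 for ABLIM1, 3 for TTC38, 2 for PTGES3, 2 for HNRNPH2 and 1 each for TBC1D7, LOC100738720 and ANXA2. All 18 are accounted for, with no filter on dim signals. For each gene the probeset with the largest Youli difference in the mean of the 5 tissues is called the leading probeset.

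Hypothalamus, adenohypophysis, thyroid gland, gonad and backfat of 16 piglets were hybridized to the Affymetrix Porcine GeneChip, 1 array per pig and tissue, which makes 80 arrays. Youli, a synthetic line with Landrace and part Chinese ancestry that is kept for litter size, was represented by 3 males and 1 female, against 2 males and 2 females each of Duroc, Iberian and Large White. Mean ages at slaughter were 80 days in Youli, 83 in Duroc, 89 in Iberian and 87 in Large White, with mean live weights of 18.9, 23.1, 17.4 and 27.2 kg. The pigs came from 3 companies and were reared together on the same diet. Which company supplied which breed is not given in the sources used here, and with 4 animals a breed, line and animal origin cannot be told apart. Animals are named by breed, sex and number, and values of the Youli animals are always given for YLF21, YLM18, YLM19 and YLM20 in this order. Values are GCRMA signals on the log2 scale, where a difference of 1 is a doubling and signals of about 2 to 3 are the lowest the arrays give.

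The 8 genes belong to different branches of cell biology. NAP1L1 is a histone chaperone of the nucleosome assembly protein family, and HNRNPH2, an X-linked gene, encodes a heterogeneous nuclear ribonucleoprotein that binds G-rich RNA and takes part in splicing. TBC1D7 is a subunit of the TSC complex, which restrains the GTPase RHEB and through it the growth kinase mTORC1, and PTGES3 encodes p23, a co-chaperone of HSP90 that serves steroid receptors and is also described as a prostaglandin E synthase. ANXA2 is an annexin, a calcium-dependent protein of membranes that pairs with S100A10, and ABLIM1 carries LIM domains and binds actin. TTC38 encodes a protein with tetratricopeptide repeats whose function is little defined, and of LOC100738720 only the symbol is given.

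Marker genes bore out the tissue labels for most arrays. The mean of 9 adenohypophysis hormone genes was 11.11 to 12.19 in that tissue, the mean of 7 thyroid follicular genes was 8.04 to 9.46 in thyroid glands and at most 2.93 elsewhere, and the mean of 9 adipocyte genes was 9.33 to 12.06 in backfat. The adipocyte genes also gave signals in thyroid glands, 5.41 to 7.70 in Youli and 4.72 to 8.65 in the other breeds. A few arrays stood apart. In backfat the 7 striated muscle genes averaged 13.94 in YLM19, against 3.07 to 3.62 in the other 3 Youli pigs, 9.14 in DUM12, 8.90 in DUF14 and 2.36 to 5.48 in the remaining pigs, and the 3′ minus 5′ signal of GAPDH was 0.09 in YLM19 and 1.42 to 2.86 in the other 15 pigs. The hormone genes of the adenohypophysis averaged 5.22 in the hypothalamus of YLM19, and 5.08 and 7.08 in the thyroid glands of YLM19 and YLM20, against at most 3.57 in the 12 other pigs in both tissues. The 11 hypothalamic neuron genes averaged 2.31 in the hypothalamus of LWF06 and 4.84 to 8.84 in the others. The value of LWF06 was within the range of the gonads, 2.04 to 2.41. In the gonad of IBF25, titled female, the ovarian genes averaged 3.03 and the testis genes 2.03, whereas the ovarian genes averaged 5.50 to 6.15 in the other 6 females. For 11 of the 16 thyroid arrays the title gives another breed or sex than the separate label fields. Titles were used here, and by title EIF1AY, a Y-linked gene, was 9.67 to 10.16 in males and 2.68 to 3.03 in females.

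Youli separated completely from the other breeds for some of the 18 probesets in 4 of the 5 tissues. TBC1D7 did so in all 4 of these tissues and NAP1L1 in 2 of them, whereas ANXA2, ABLIM1 and LOC100738720 did so in 1 tissue each. The 4 Youli arrays all lay above or all below the 12 others for 2 of 18 probesets in the hypothalamus (TBC1D7, ANXA2), where 0.321% of all probesets did so. In the adenohypophysis 5 probesets did (TBC1D7 and all 4 of ABLIM1), against 0.642% of all probesets. In the thyroid gland it was 3 (NAP1L1, TBC1D7, LOC100738720), against 0.521%, and in the gonad 2 (NAP1L1, TBC1D7), against 0.138%. In backfat none of the 18 separated, where 0.733% of all probesets did, and in the mean of the 5 tissues 6 of 18 separated, against 0.783%. These shares are given for scale only, since the genes were chosen on this contrast. In the thyroid gland without YLM19 and YLM20, the same 3 probesets separated the remaining 2 Youli pigs, where 1.74% of all probesets did. Since all 4 Youli thyroid glands lay apart from the 12 others by these 3, this follows from that. Leaving out YLM19 in backfat, 3 probesets separated (the leading one of NAP1L1 and 2 of ABLIM1), where 1.52% of all probesets did so with 3 Youli arrays. With the breed fields of the thyroid gland in place of the titles, none of the 18 separated, against 0.0458% of all probesets.

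**Figure D1:**
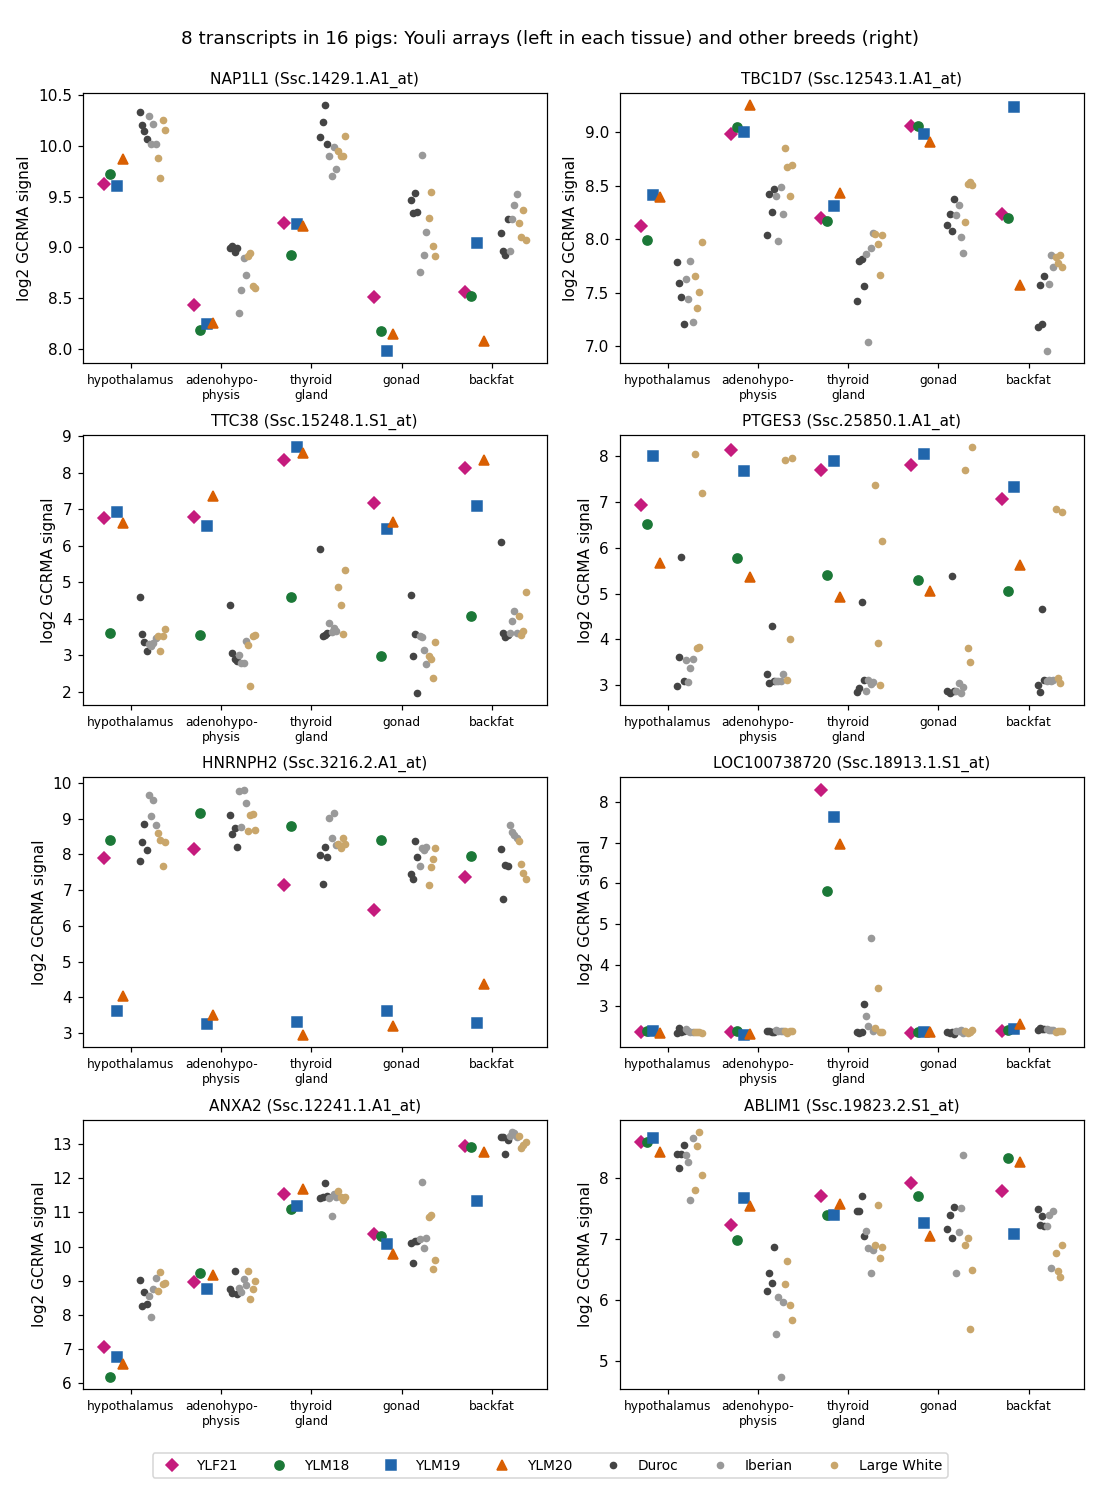
Log2 GCRMA signal (y axis, its range set per panel) of the leading probeset of each of the 8 genes in 5 tissues (x axis), with the 4 Youli pigs as coloured symbols on the left of each tissue and the 12 other pigs as small dots on the right. NAP1L1 and TBC1D7 are shifted in every tissue, LOC100738720 only in the thyroid gland and ANXA2 mostly in the hypothalamus, while in TTC38, PTGES3 and HNRNPH2 the Youli pigs differ among themselves.

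NAP1L1 was lower in Youli by 1 of its 4 probesets. By Ssc.1429.1.A1_at the thyroid signal was 9.24, 8.92, 9.23 and 9.21 in Youli, against 9.70 to 10.40 (median 9.97) in the other breeds. In the gonad it was 8.51, 8.17, 7.98 and 8.14 in Youli, against 8.76 to 9.91 (median 9.32). The Youli groups did not overlap the others in these tissues, with differences of -0.86 (SE 0.08) and -1 (SE 0.16). In the hypothalamus Youli had 9.62, 9.72, 9.60 and 9.87, against 9.68 to 10.33, and in the adenohypophysis 8.43, 8.18, 8.24 and 8.25, against 8.35 to 9.01. In these tissues single arrays overlapped, LWF06 in the hypothalamus and IBF22 in the adenohypophysis, and the differences were -0.42 (SE 0.10) and -0.51 (SE 0.09). Backfat gave 8.56, 8.52, 9.04 and 8.08 in Youli, against 8.92 to 9.53, and YLM19, the array rich in muscle transcripts, was the only one inside the range of the others. Averaged over the 5 tissues of each pig, Youli had 8.87, 8.70, 8.82 and 8.71, against 9.25 to 9.60 in the 12 others, a gap of 0.38.

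The other 3 probesets of NAP1L1 did not follow. Their Youli differences lay between -0.12 and 0.42 over the tissues, and none of them separated Youli in any tissue. In the adenohypophysis, where the leading probeset was lower, they were higher, with differences of 0.38 (SE 0.09) for Ssc.14238.1.S1_a_at, 0.42 (SE 0.16) for Ssc.14238.2.S1_at and 0.36 (SE 0.08) for Ssc.3802.1.S1_at. In deviations from the tissue mean over the 80 arrays, these 3 correlated with each other at r of 0.74 to 0.79 and with the leading probeset at 0.03 to 0.19; the points share 16 pigs with 5 arrays each. Which part of the transcript each probeset reads was not tested. Of the variation of the leading probeset within tissues, 67.0% lay between animals, where the median of all probesets was 27.7%. The probeset was chosen for its Youli difference, which raises this share, so that the median is given for scale only. With the breed means of each tissue removed, 11.7% of what was left lay between animals, where the median was 25.1%.

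**Figure D2:**
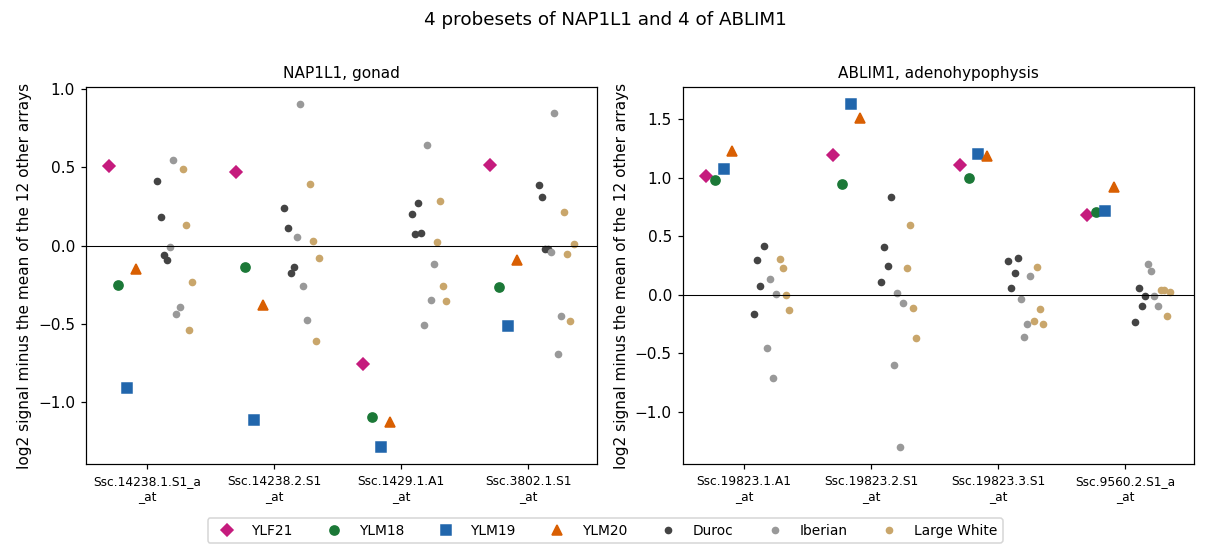
Log2 signal minus the mean of the 12 other arrays (y axis) for the 4 probesets of NAP1L1 in the gonad and the 4 probesets of ABLIM1 in the adenohypophysis (x axis), with Youli pigs as coloured symbols left of the other breeds. In NAP1L1 only Ssc.1429.1.A1_at sets all 4 Youli gonads below the others, whereas all 4 ABLIM1 probesets set the 4 Youli adenohypophyses above them.

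HNRNPH2 was low in 2 of the 4 Youli pigs and in no other animal. By Ssc.3216.2.A1_at the adenohypophysis gave 8.15, 9.15, 3.26 and 3.51 in Youli, against 8.22 to 9.81 (median 8.93) in the other breeds. In the thyroid gland Youli had 7.15, 8.78, 3.31 and 2.95, against 7.18 to 9.16, and in the hypothalamus 7.91, 8.39, 3.61 and 4.03, against 7.67 to 9.67. YLM19 and YLM20 were thus near the lowest signals of the array in these tissues, while YLF21 and YLM18 were at or near the level of the other pigs in them. The gonad gave 6.44, 8.39, 3.63 and 3.20 in Youli, against 7.15 to 8.37. YLF21 too lay below the other breeds there, and just below them in the adenohypophysis and thyroid gland. Backfat gave 7.37, 7.96, 3.30 and 4.37 in Youli, against 6.75 to 8.83. The mean difference of Youli, -2.06 to -2.84 over the tissues with SE of 0.68 to 0.91, rested mostly on these 2 males, and the groups overlapped in all 5 tissues.

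The other probeset of HNRNPH2, Ssc.3216.1.A1_at, gave 8.54 and 8.87 in the hypothalami of YLM19 and YLM20, 8.82 and 8.98 in YLF21 and YLM18, and 8.82 to 9.44 in the other breeds. Over the tissues its Youli difference was -0.16 to -0.39 (SE 0.07 to 0.16). Averaged over the tissues it gave 8.44 and 8.62 in YLM19 and YLM20, 8.67 and 8.93 in YLF21 and YLM18, and 8.68 to 9.05 in the other breeds. It was thus lowest in YLM19 and YLM20 too, but by a small amount and without a fall to near the lowest signals. Its deviations correlated with those of the leading probeset at r = 0.61. For the leading probeset 95.4% of the variation within tissues lay between animals. With the breed means of each tissue removed, this share was 92.8% of what was left.

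TBC1D7 was higher in Youli in every tissue, by a moderate amount. Its only probeset, Ssc.12543.1.A1_at, gave 9.06, 9.06, 8.98 and 8.91 in Youli gonads, against 7.87 to 8.53 (median 8.23) in the other breeds. In the adenohypophysis Youli had 8.98, 9.05, 9 and 9.25, against 7.98 to 8.85. These groups were apart by 0.38 and 0.13, with differences of 0.76 (SE 0.09) and 0.65 (SE 0.11). In the hypothalamus Youli had 8.12, 7.99, 8.41 and 8.39, against 7.21 to 7.97, and in the thyroid gland 8.20, 8.17, 8.31 and 8.43, against 7.04 to 8.06. The highest of the other pigs came within 0.01 and 0.11 of the lowest Youli pig there, and the differences were 0.67 (SE 0.14) and 0.48 (SE 0.15). Backfat gave 8.24, 8.20, 9.23 and 7.57 in Youli, against 6.96 to 7.85, so that YLM20 lay among the other breeds and the muscle-rich array of YLM19 was the highest. The backfat difference was 0.69 (SE 0.24) with YLM19 and 0.41 without it. Large White had the highest mean of the other breeds for TBC1D7 in each of the 5 tissues, 8.09 over the tissues, against 7.81 in Duroc and 7.83 in Iberian.

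PTGES3 was well above the lowest signals in all 4 Youli pigs by Ssc.25850.1.A1_at, and near them in 9 of the 12 other pigs. In the adenohypophysis Youli had 8.13, 5.77, 7.67 and 5.37, against 3.05 to 4.28 in 10 of the 12 others and 7.92 and 7.95 in LWF05 and LWM04. In the gonad Youli had 7.81, 5.29, 8.04 and 5.05, against 2.83 to 5.39 in 10 of the others and 7.69 and 8.19 in LWF05 and LWM04. Backfat gave 7.06, 5.05, 7.32 and 5.63 in Youli, against 2.86 to 4.66 in the same 10 pigs and 6.84 and 6.79 in LWF05 and LWM04. The signals fell into 3 levels, with YLF21, YLM19, LWF05 and LWM04 high, YLM18, YLM20 and DUM12 between and the remaining 9 pigs low, and the pigs kept this order of levels in the hypothalamus and thyroid gland too. Averaged over the tissues, the high pigs had 7.52, 7.78, 7.57 and 7.25, those between had 5.61, 5.33 and 4.99, and the others at most 3.56. The Youli difference was 2.41 to 2.71 over the tissues (SE 0.76 to 0.95), and the groups overlapped in all of them through 2 Large White pigs and, in the hypothalamus and gonad, DUM12.

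The other probeset of PTGES3, Ssc.19975.1.S1_at, moved in the same direction with a smaller size. Its mean over the 5 tissues was 8.88, 8.45, 9.24 and 8.62 in Youli, against 7.87 to 9.03 in the other breeds, where LWF05 had 9.03 and LWM04 8.69. Its Youli differences were 0.29 to 0.83 (SE 0.12 to 0.44), and its deviations correlated with those of the leading probeset at r = 0.71. Between animals lay 97.1% of the variation of the leading probeset within tissues, and 58.9% of that of this one.

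**Figure D3:**
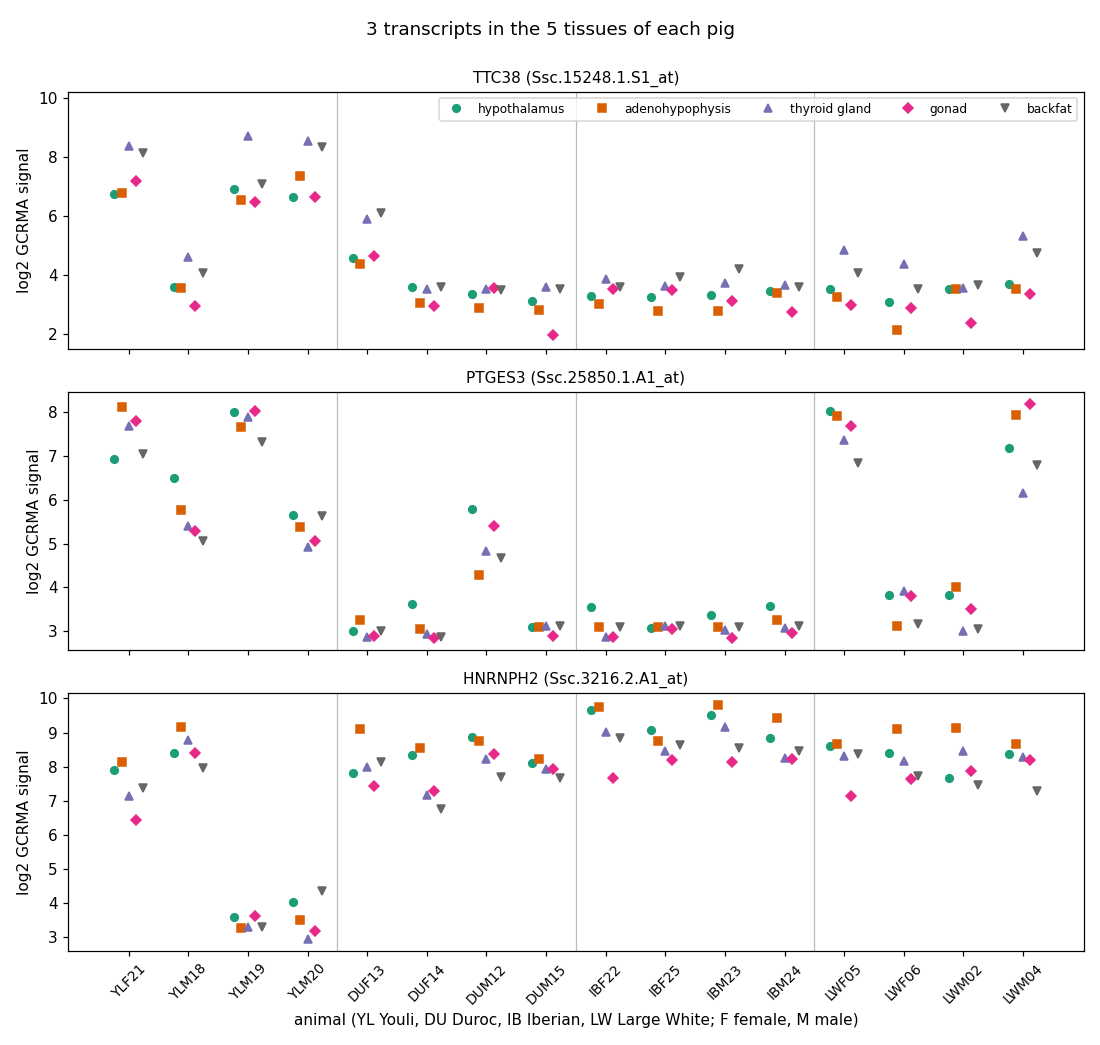
Log2 GCRMA signal (y axis) of the leading probesets of TTC38, PTGES3 and HNRNPH2 in each of the 16 pigs (x axis, Youli on the left, vertical lines between breeds), with 1 symbol per tissue. The 5 tissues of a pig lie together: TTC38 is high in YLF21, YLM19 and YLM20, PTGES3 in YLF21, YLM19, LWF05 and LWM04, and HNRNPH2 is low in YLM19 and YLM20.

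ANXA2 was lower in Youli in the hypothalamus. Its probeset Ssc.12241.1.A1_at gave 7.06, 6.17, 6.75 and 6.57 in Youli hypothalami, against 7.92 to 9.24 (median 8.73) in the other breeds. The groups were apart by 0.86, with a difference of -2.06 (SE 0.22), and the 3 other breeds had means of 8.56, 8.58 and 8.94. In the adenohypophysis, thyroid gland and gonad the Youli difference was 0.15 (SE 0.15), -0.09 (SE 0.14) and 0.04 (SE 0.32), and the groups overlapped. Backfat, where ANXA2 had its highest signals, gave 12.94, 12.91, 11.32 and 12.78 in Youli, against 12.71 to 13.36. The lowest of these was the muscle-rich array of YLM19, and the difference was -0.59 (SE 0.24) with it and -0.23 without it. In the hypothalamus the 10 genes of blood vessels and meninges averaged 5.72 to 6.04 in Youli and 5.53 to 6.08 in the other breeds, and the neuron genes 5.01 to 7.85 in Youli and 2.31 to 8.84 in the other breeds, so that neither list separated the groups. In such bulk samples fewer cells of a type and less RNA per cell cannot be told apart. Since all Youli hypothalami lay below all others for ANXA2, leaving out YLM19 or LWF06 could not change this order.

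ABLIM1 was higher in the Youli adenohypophysis by all 4 probesets. By Ssc.19823.2.S1_at Youli had 7.23, 6.98, 7.66 and 7.54 there, against 4.73 to 6.87 (median 6.09) in the other breeds. Ssc.19823.1.A1_at gave 9.09, 9.06, 9.15 and 9.30 in Youli, against 7.36 to 8.49, and Ssc.19823.3.S1_at gave 4.59, 4.48, 4.69 and 4.67, against 3.12 to 3.80. Ssc.9560.2.S1_a_at gave 9.15, 9.18, 9.19 and 9.39 in Youli, against 8.24 to 8.73. All 4 Youli arrays were above all others by every probeset, with gaps of 0.11 to 0.68 and differences of 1.36 (SE 0.25), 1.09 (SE 0.15), 1.12 (SE 0.11) and 0.78 (SE 0.07) in the order given. The 3′ minus 5′ signal of ACTB, a sign of RNA quality, was 1.40 to 1.88 in these Youli arrays and 1.54 to 3.19 in the others, and its part in the result was not tested.

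In backfat the number of Youli pigs above all others differed between the ABLIM1 probesets. By the leading probeset Youli had 7.78, 8.32, 7.08 and 8.25, against 6.37 to 7.49, and the difference was 0.85 (SE 0.23), or 1.09 without the muscle-rich YLM19. By Ssc.19823.3.S1_at backfat gave 5.73, 5.87, 4.43 and 5.77 in Youli, against 3.68 to 5.12. In both, YLF21, YLM18 and YLM20 were above the others. Ssc.19823.1.A1_at gave 9.24, 9.76, 8.91 and 9.82 in Youli, against 8.30 to 9.42, and Ssc.9560.2.S1_a_at gave 9.42, 9.60, 8.80 and 9.79, against 8.47 to 9.45, so that by these only YLM18 and YLM20 were above the others. The 3′ minus 5′ signal of ACTB was 1.59 to 1.87 in Youli backfat and 1.81 to 3.01 in the others, and its part was not tested. In hypothalamus, thyroid gland and gonad the Youli differences of the 4 probesets were 0.01 to 0.51 and the groups overlapped. The 4 probesets correlated with each other at r of 0.55 to 0.91 in deviations over the 80 arrays, and in the adenohypophysis, unlike those of NAP1L1 in any tissue, all 4 set Youli apart.

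TTC38 was high in 3 of the 4 Youli pigs. By Ssc.15248.1.S1_at the thyroid gland gave 8.35, 4.60, 8.69 and 8.54 in Youli, against 3.52 to 5.91 (median 3.71) in the other breeds. In backfat Youli had 8.12, 4.08, 7.09 and 8.34, against 3.49 to 6.09, and in the gonad 7.18, 2.97, 6.46 and 6.65, against 1.97 to 4.64. YLF21, YLM19 and YLM20 were above all other pigs in each tissue, YLM18 was within the range of the other breeds, and DUF13 had the highest signal of the other breeds. In the hypothalamus Youli had 6.75, 3.60, 6.93 and 6.63, against 3.11 to 4.59. In the adenohypophysis Youli had 6.79, 3.56, 6.55 and 7.35, against 2.16 to 4.38. The mean difference was 2.57 to 3.55 (SE 0.50 to 0.70), and averaged over the tissues DUF13 had 5.12, against 7.44, 7.14 and 7.5 in the 3 high Youli pigs and 3.02 to 4.14 in the 11 others outside Youli. Between animals lay 95.3% of the variation within tissues. With the breed means of each tissue removed, this share was 91.0% of what was left.

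The other probesets of TTC38 did not show this. Ssc.12315.1.A1_at was at 2.52 to 3.30 in every array, near the lowest signals, and Ssc.6614.1.S1_at gave 5.85, 5.61, 5.71 and 4.81 in Youli thyroid glands, against 4.15 to 6.23. Their correlations with the leading probeset were 0.02 and 0.03. Youli differences of Ssc.6614.1.S1_at were -0.06 to 0.63 (SE 0.26 to 0.36), with overlap in each tissue.

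LOC100738720 was set apart in the thyroid gland alone. Ssc.18913.1.S1_at gave 8.29, 5.81, 7.63 and 6.97 in Youli thyroid glands, against 2.36 to 4.68 (median 2.45) in the other breeds. The groups were apart by 1.13, with a measured difference of 4.43 (SE 0.48). Of the 12 others, 9 were at 2.36 to 2.77, the lowest signals of the array, with 3.07 in DUM15, 3.44 in LWF06 and 4.68 in IBM23, so that the log2 difference can understate the change and is read as a minimum. The same limit holds for PTGES3 and HNRNPH2, where 1 side lies near the lowest signals. For TTC38 it can hold less, as the medians of the other breeds ran from 3.05 in the adenohypophysis to 3.71 in the thyroid gland. In the other 4 tissues all 16 pigs were between 2.30 and 2.56, the lowest signals of the array. The adenohypophysis hormone genes, raised in the thyroid arrays of YLM19 and YLM20, averaged 2.26 and 2.19 in those of YLF21 and YLM18, and LOC100738720 was at 2.30 to 2.43 in all adenohypophyses. The 5 genes of white blood cells averaged 3.25 to 3.74 in Youli thyroid glands and 2.81 to 3.57 in the others, and their part in the result was not tested.

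The thyroid results rest on the titles. Taking the breed fields, the array titled YLF21 leaves Youli and that titled LWM04 enters it, and the Youli difference becomes 2.03 for LOC100738720, 2.08 for TTC38 and -0.48 for the leading probeset of NAP1L1, against 4.43, 3.55 and -0.86 by title.

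**Figure D4:**
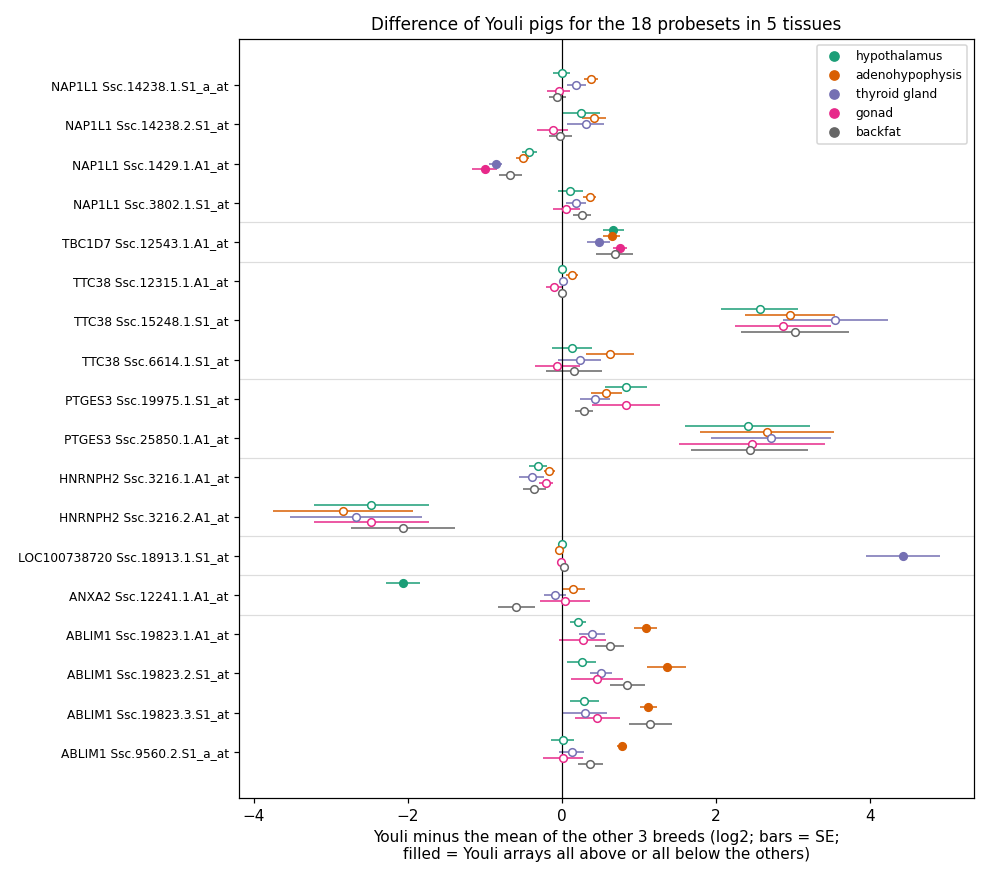
Youli minus the mean of the other 3 breeds on the log2 scale (x axis, bars are SE) for the 18 probesets (y axis) in 5 tissues (colours), with filled symbols where all 4 Youli arrays lay above or below the 12 others. The largest measured differences belong to TTC38, PTGES3, HNRNPH2 and LOC100738720. There 1 side lies near the lowest signals, for TTC38 in part above them. Filled symbols are found for NAP1L1, TBC1D7, LOC100738720, ANXA2 and ABLIM1.

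Sex was not used in the choice of these genes and was tested with limma, breed as covariate. None of the 18 probesets differed between males and females in the hypothalamus, the adenohypophysis or backfat, with 0 of 18 at an unadjusted p under 0.05, where 0.0667%, 0.5% and 0.05% of all probesets were called. None differed in the thyroid gland either, with 1 of 18 at an unadjusted p under 0.05 and 0.0792% of all probesets called. In the gonads, where 28.3% of all probesets were called, 3 of 18 differed, all of NAP1L1 and all lower in testes (4 of 18 at an unadjusted p under 0.05). Ssc.14238.1.S1_a_at averaged 10.61 ± 0.27 (SD, n = 9) in testes and 11.27 ± 0.22 (SD, n = 7) in ovaries, so that testes were lower, with a difference of -0.66 (SE 0.13, limma adjusted p = 0.0027). Ssc.14238.2.S1_at averaged 10.59 ± 0.33 in testes and 11.28 ± 0.31 in ovaries, a difference of -0.67 (SE 0.17, limma adjusted p = 0.012), and Ssc.3802.1.S1_at 8.48 ± 0.26 in testes and 9.07 ± 0.32 in ovaries, a difference of -0.61 (SE 0.15, limma adjusted p = 0.0085). Without IBF25 these differences were -0.60, -0.57 and -0.48 and kept their calls, and without YLF21 Ssc.14238.2.S1_at lost its call (difference -0.58, limma adjusted p = 0.051). The probeset of NAP1L1 that was lower in Youli had a sex difference of -0.28 (SE 0.14, limma adjusted p = 0.19).

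Because the Youli gonads were 3 testes and 1 ovary, the sexes were also viewed apart. In testes the leading probeset of NAP1L1 was 7.98 to 8.17 in 3 Youli and 8.91 to 9.54 in 6 others. In gonads titled female it was 8.51 in the Youli pig and 8.76 to 9.91 in 6 others. The highest of these was IBF25, whose gonad had low ovarian and testis genes. TBC1D7 was 8.91 to 9.06 in Youli testes and 7.87 to 8.53 in the others, and 9.06 in the Youli ovary and 8.13 to 8.52 in the others. Since all 4 Youli gonads lay apart from the 12 others, this order within each sex follows from that, and in ovaries it rests on 1 Youli pig.

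Between tissues, tested with limma over the 80 arrays, 15 of the 18 probesets differed, where 94% of all probesets were called. ANXA2 was lowest in the hypothalamus (mean 8.18 ± 0.99), followed by adenohypophysis (8.89 ± 0.25), gonad (10.22 ± 0.61), thyroid gland (11.44 ± 0.23) and backfat (12.97 ± 0.48; SD over 16 pigs), and had the strongest tissue difference of the 18 (limma adjusted p = 1.6e-37). ABLIM1 was highest in the hypothalamus and lowest in the adenohypophysis by all 4 probesets, with 8.36 ± 0.31 and 6.36 ± 0.78 for the leading one (SD over 16 pigs). The leading probesets of PTGES3 (limma adjusted p = 0.82) and HNRNPH2 (limma adjusted p = 0.16) were not called in this fit, which does not use that the 5 tissues come from the same pig, nor was the dim probeset of TTC38 (limma adjusted p = 0.68). With the pig as a replicate block 17 of 18 were called, PTGES3 (limma adjusted p = 0.0024) and HNRNPH2 (limma adjusted p = 1e-08) among them, and the dim probeset of TTC38 was not (limma adjusted p = 0.7). HNRNPH2 was higher in the adenohypophysis than in the gonad of the same pig in 15 of 16 pigs. PTGES3 had tissue means of 4.43 to 4.94 with SD of 1.74 to 2.13 between pigs, and HNRNPH2 means of 7.24 to 8.25 with SD of 1.52 to 1.96.

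Genes related in function to the 8 were examined as lists, with Youli tested against the other breeds by limma over all probesets. They were nucleosome assembly proteins and other histone chaperones (11 of 16 genes measured), the TSC complex, RHEB and RAB GTPase-activating proteins (9 of 21), tetratricopeptide repeat genes (6 of 31), HSP90 and its co-chaperones (15 of 17), prostaglandin synthesis (5 of 10), hnRNP proteins (20 of 24), annexins and S100 partners (9 of 18), and LIM domain and actin-binding proteins (16 of 22). Of the 91 genes, 1 was called in the adenohypophysis (13 at an unadjusted p under 0.05), where 0.183% of all probesets were. No gene was called in the hypothalamus, thyroid gland, gonad or backfat, with 8, 15, 7 and 15 genes at an unadjusted p under 0.05 and 0.0208%, 0.146%, 0.0375% and 0.35% of all probesets called. The gene called was HNRNPH3, an hnRNP related to HNRNPH2, with 10.27 in Youli and 9.86 in the other breeds, a difference of 0.42 (SE 0.05, limma adjusted p = 0.010). List medians of the Youli difference lay between -0.32 and 0.26 over lists and tissues, beside -0.03 to 0.00 for all probesets.

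Larger differences of related genes did not pass the test, of which 4 genes are given here, chosen after their values were seen. HNRNPL had a Youli difference of 1.60 to 2.21 over the 5 tissues with SE of 0.94 to 1.09 (limma adjusted p of 0.35 to 0.86). S100A4, a calcium-binding protein, averaged 6.14 in Youli hypothalami and 3.40 in the others, a difference of 2.54 (SE 0.69, limma adjusted p = 0.27). TSC2, which forms the complex with TBC1D7, had a difference of 0.73 in backfat (SE 0.17, limma adjusted p = 0.10), and PTGES, another prostaglandin E synthase, one of -0.97 in backfat (SE 0.55, limma adjusted p = 0.54).

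The genes most alike in pattern were ranked by Pearson's r in deviations from the tissue mean over the 80 arrays, which come from 16 pigs, so that a shared Youli difference enters every r. HNRNPH2 was nearest to TNFRSF17 (r = -0.89), AKAP13 (0.80) and TTC38 (-0.77), and TTC38 to HNRNPH2 (-0.77), AKAP13 (-0.68) and TNFRSF17 (0.66). TNFRSF17, a receptor of plasma cells, was higher in Youli by 1.11 to 2.46 and AKAP13, an anchoring protein of protein kinase A, lower, with differences of -1.44 to -1.80 over the tissues. NAP1L1 was nearest to a probeset of SEPT7, a septin, to PLAC8 and to TMEM128 (r = 0.68 each), and PLAC8 had Youli differences of -2.78 in the hypothalamus and -3.47 in backfat but -0.21 in the adenohypophysis. TBC1D7 was nearest to GTF2F2 (-0.66), another probeset of SEPT7 (0.63) and TCN2 (-0.63); this SEPT7 probeset was higher in Youli by 1.23 to 1.62 in all tissues, while the SEPT7 probeset near NAP1L1 had differences of -0.01 to -0.32. PTGES3 was nearest to CCDC25 (-0.67), MAP3K7 (0.64) and THYN1 (-0.61).

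LOC100738720 was nearest to SLC25A24 (r = 0.65), ADRA2A (0.63) and LOC100738087 (0.59), with Youli differences of 1.01, 1.23 and 0.84 in the thyroid gland and of 0.28 or less in size in the other tissues. ANXA2 was nearest to FEZ1 (-0.59), MAL2 (0.58) and TSPAN13 (0.58), and ABLIM1 to SERINC1 (0.65), SCAF8 (0.65) and LOC100517973 (-0.63). SERINC1 and SCAF8 had Youli differences of 0.69 and 0.83 in the adenohypophysis.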

How the data were processed

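RNA of 5 tissues of 16 pigs was hybridized to the Affymetrix Porcine GeneChip, 1 array a sample. The deposited values are log2 signals, made by the authors with GCRMA over the arrays, and were used without a further transformation. Of 24123 probesets, 124 controls were left out. The array annotation gives 1 gene symbol to 10069 probesets, several to 198 and none to 13732. Arrays were assigned to pigs by title. The 8 genes, the related lists and the marker lists were chosen with earlier results of these data known. Where a listed gene had several probesets, that with the highest mean stood for it.

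In limma 3.58.1 (R 4.3.3) each tissue was fitted for breed and sex, with eBayes and Benjamini-Hochberg adjustment over 23999 probesets at 0.05, two-sided. Youli was contrasted with the mean of the Duroc, Iberian and Large White means. Tissues were tested by the moderated F with breed and sex as covariates. The 5 tissues of a number come from the same pig, so the number pairs arrays across tissues. Where genes were named for likeness, the 3 with the largest r in either sign were taken, 1 probeset a gene. The fits were tested on simulated data. Alternatives left out sex, breed, dim probesets (mean under 4) or each pig in turn, shifted arrays to one median, used an intensity trend, the fields, or testes alone. The p-values of the breed and sex tests measure the spread between these pigs only. Between tissues, the main fit mixes the spread between and within pigs. The fit with the pig as replicate block uses the spread within pigs. The number of pigs limits the precision.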

Additional observations from a re-analysis of the deposited data

Results flagged for a closer look

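The leading probesets were examined in the 160 groups of 4 pigs given by 8 genes, 5 tissues and 4 breeds. In 21 of these the highest or lowest pig stood apart from the other 3 by more than Dixon's critical value. Chance gives about 1 in 20 for independent groups of normal values. These groups reuse the same pigs over the tissues, so that this rate is for scale only.

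For TTC38, YLM18 stood apart from the other Youli pigs with 3.60 in the hypothalamus, against 6.63 to 6.93, and with 4.60 in the thyroid gland, against 8.35 to 8.69. DUF13 stood above the other Duroc pigs with an adenohypophysis signal of 4.38 against 2.83 to 3.07, a thyroid signal of 5.91 against 3.52 to 3.60 and a backfat signal of 6.09 against 3.49 to 3.61. For PTGES3, DUM12 stood above the other Duroc pigs with signals of 4.28 (adenohypophysis), 4.82 (thyroid), 5.39 (gonad) and 4.66 (backfat), where the others had at most 3.24. A small difference was also picked out in the adenohypophysis of IBM24, 3.25 against 3.08 to 3.09.

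For LOC100738720 in the thyroid gland, DUM15 had 3.07, IBM23 4.68 and LWF06 3.44, against 2.36 to 2.77 in the other pigs of their breeds, and IBF22 had 2.43 in the adenohypophysis, against 2.40 to 2.41. For ANXA2, YLM19 had 11.32 in backfat, against 12.78 to 12.94 in the other Youli pigs; this array also had the highest striated muscle signal, 13.94. IBF25 had 11.88 in the gonad, against 9.95 to 10.25 in the other Iberian pigs, and this gonad had low ovarian and testis genes. DUF14 had 9.53 in the gonad, against 10.10 to 10.16, and DUM12 had 11.86 in the thyroid gland, against 11.43 to 11.48. For NAP1L1, YLM18 had 8.92 in the thyroid gland, against 9.21 to 9.24 in the other Youli pigs. For TBC1D7, LWF05 had 8.16 in the gonad, against 8.51 to 8.53, and for HNRNPH2, IBF22 had 7.68 in the gonad, against 8.13 to 8.22.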

How the results depend on the processing

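The Youli differences of the 18 probesets were set against alternatives in 2179 comparisons. Of these 2171 moved a value by less than the residual SD and 8 by more. The breed and sex fields of the thyroid gland gave 6 of the 8. This margin is wide where Youli pigs differ among themselves. Without 1 pig the leading HNRNPH2 probeset gave -3.28 to -1.76 in the hypothalamus, and TBC1D7 gave 0.41 to 0.94 in backfat. In tissues where a probeset separated Youli its difference kept its sign, which leaving out pigs could hardly change. Elsewhere small differences changed sign, as for NAP1L1 Ssc.14238.1.S1_a_at in the gonad, -0.14 to 0.14. The counts of all probesets called varied with the setting, and the cause was not tested. For Youli against the other breeds 5 were called in the hypothalamus (16 without sex in the fit, 12 with arrays shifted to one median), 44 in the adenohypophysis (94 without sex), 35 in the thyroid gland (0 with the fields, 748 at an unadjusted p under 0.05 in limma), 9 in the gonad (3 without sex, and 0 in testes alone, with the 7 females left out and 2851 at an unadjusted p under 0.05), 84 in backfat (157 without sex) and 179 in the mean of 5 tissues. Leaving out 1 pig gave 4 to 16 in the hypothalamus (most without LWM02), 16 to 115 in the adenohypophysis (fewest without YLM19, most without LWF06), 12 to 58 in the thyroid gland (fewest without YLF21, most without IBM24), 1 to 14 in the gonad (fewest without LWF06, most without YLM18), 16 to 111 in backfat (fewest without YLF21) and 52 to 214 in the mean of 5 tissues (fewest without YLF21). For sex, 120 were called in the adenohypophysis (77 to 121, fewest without DUF14) and 19 in the thyroid gland (0 with the fields, 857 at an unadjusted p under 0.05). Between tissues 22558 were called, 13933 of 14143 with dim probesets left out, and 22629 in the paired fit with the pig as replicate block; of the 18 probesets this block added 2 calls, PTGES3 and HNRNPH2, and lost none. Chosen after seeing the data, the count of the 18 probesets that separated Youli was 3 in backfat, against 0, without YLM19. It was also 3 there without YLM19, DUF14 and DUM12. With the fields it was 0 in the thyroid gland, against 3. In the hypothalamus it was 2 without YLM19 and 3 without LWF06, and in the gonad 2 without IBF25. Leaving out pigs cannot undo a separation, so that counts with pigs left out could only stay or rise.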
